A study of Mus musculus with 39 samples.

Results

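The classical IL-17 target genes are genes that cells switch on when interleukin-17 binds its receptor. The set followed here has 10 members, Cxcl1, Cxcl2, Cxcl5, Csf2, Csf3, Lcn2, Nfkbiz, Zc3h12a, Il6 and Ptgs2, found by symbol among the 55011 rows of a mouse count table, and all 10 had a row. The table holds 39 libraries in 14 groups from a study of IL-17A-producing γδ T cells in the repair of hindlimb muscle after cardiotoxin, a snake venom toxin that kills muscle fibres.

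Vγ6 T cells, a γδ T cell subset, were sorted from wild-type muscle on day 3 after injury (3 libraries) and from the colonic lamina propria of wild-type mice with no treatment (3 libraries). Injured tibialis anterior muscle was taken whole on days 1, 3, 7 and 14 from Tcrd-DTR mice, in which the diphtheria toxin receptor is placed on γδ T cells, and from wild-type (WT) mice, with 3 libraries a group except 2 for Tcrd-DTR day 7. Both genotypes had received intraperitoneal diphtheria toxin, and so had the Tcrd-DTR and WT mice whose muscle satellite cells, the stem cells of muscle, were sorted on day 1 (3 libraries each). The last 2 groups were injured wild-type muscle taken whole on day 7, after recombinant IL-17A (rIL-17A) or PBS given intraperitoneally and into the muscle, with 2 libraries each. Sorted libraries started from 1000 cells and whole-muscle libraries from 2 ng of RNA. The mice's ages and sexes and the dose of rIL-17A are not stated in the labels.

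IL-17A signals through a receptor made of IL-17RA and IL-17RC, mostly on stromal, epithelial and other non-lymphoid cells, through the adaptor Act1 to NF-κB, C/EBP proteins and mRNA stabilisation. The response is known for neutrophil-attracting chemokines, growth factors that raise neutrophil output, IL-6 and antimicrobial proteins, and it acts strongly together with TNF and IL-1. Most of these genes are also induced by other inflammatory signals, so their level alone does not report IL-17A.

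Library totals ran between 2372139 and 10974862 counts, and levels are counts scaled to that total (CPM), not corrected for gene length, so they are compared between groups and not between genes. A library with 0 counts of a gene allows a level of up to 0.273 CPM in the deepest and 1.26 CPM in the shallowest library (3 counts, counting error only). Fitted changes are log2 ratios ± SE after TMM scaling, tested with edgeR's quasi-likelihood test with Benjamini-Hochberg adjustment over all genes tested, and a gene is said to rise or fall where the adjusted p is under 0.05. In whole muscle, fewer cells of a type and less RNA per cell cannot be told apart.

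The labels were checked on marker genes. Sorted Vγ6 cells had summed γδ receptor RNA of 5727 to 5994 CPM from muscle and 4101 to 4325 CPM from colon. Satellite cell libraries had Myod1 at 3137 ± 169 CPM in Tcrd-DTR and 3717 ± 561 CPM in WT mice (SD, n = 3 each), Pax7 at 27.4 ± 4.05 CPM in Tcrd-DTR and 28.4 ± 7.53 CPM in WT, and the leukocyte gene Ptprc at 0.462 ± 0.538 CPM in Tcrd-DTR and 0.188 ± 0.183 CPM in WT. In whole muscle the 6 γδ receptor genes summed to 10 counts in Tcrd-DTR and 64 in WT on day 3 and to 7 and 25 counts on day 14 (exact permutation p = 0.1 for each day, the smallest that 3 against 3 allows). On day 7 the sums were 2 counts in Tcrd-DTR and 25 in WT (exact permutation p = 0.2, the smallest that 2 against 3 allows). On day 1 they were not lower, with 19 counts in the muscle labelled Tcrd-DTR and 15 in WT (exact permutation p = 0.3), so depletion is not visible in the day 1 muscle libraries and that group is given by its label.

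Promoter sequence was in hand for 7 of the 10 members, as 300 bases of the RefSeq GRCm38.p6 mouse assembly reaching from 250 bases before to 50 after the gene start. They were searched on both strands for a loose form of the NF-κB (κB) element, GGG and CC with any 5 bases between, and for a stricter form, GGGA and TTTCC with any 1 base between, whose matches are all matches of the looser form too. The looser form was present in 7 of 7 members but also in 50.8% of 32851 promoters, and the stricter form was in 3 of 7 members and in 0.411% of promoters. The C/EBP-like TTGCNNAA was in 4 of 7 members and 10.8% of promoters, and the AP-1 element TGANTCA in 1 of 7 and 7.81%. The 3 promoters with the stricter form, those of Cxcl1, Cxcl2 and Il6, are shown with that of Lcn2, whose levels changed most steeply over the course of repair. Capitals mark matches to the looser form on either strand, and overlapping matches run together.
Cxcl1, chr5:90890995-90891294, plus strand: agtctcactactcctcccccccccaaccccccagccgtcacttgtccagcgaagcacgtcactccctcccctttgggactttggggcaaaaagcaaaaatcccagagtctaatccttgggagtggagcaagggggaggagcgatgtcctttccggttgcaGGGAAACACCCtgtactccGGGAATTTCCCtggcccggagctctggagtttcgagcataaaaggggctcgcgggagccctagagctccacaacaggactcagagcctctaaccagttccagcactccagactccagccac
Cxcl2, chr5:90903649-90903948, plus strand: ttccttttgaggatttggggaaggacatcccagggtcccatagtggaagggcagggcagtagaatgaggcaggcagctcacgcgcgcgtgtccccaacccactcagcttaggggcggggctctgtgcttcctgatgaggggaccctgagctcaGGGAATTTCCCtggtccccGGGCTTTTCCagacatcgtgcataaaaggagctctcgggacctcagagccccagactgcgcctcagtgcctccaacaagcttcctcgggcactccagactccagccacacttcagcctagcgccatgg
Il6, chr5:30012864-30013163, plus strand: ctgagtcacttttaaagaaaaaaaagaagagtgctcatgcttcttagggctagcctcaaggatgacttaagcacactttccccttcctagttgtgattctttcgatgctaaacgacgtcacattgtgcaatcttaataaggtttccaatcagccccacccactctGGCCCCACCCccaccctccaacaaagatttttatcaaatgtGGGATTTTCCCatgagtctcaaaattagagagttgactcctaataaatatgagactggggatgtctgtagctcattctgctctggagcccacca
Lcn2, chr2:32387690-32387989, minus strand: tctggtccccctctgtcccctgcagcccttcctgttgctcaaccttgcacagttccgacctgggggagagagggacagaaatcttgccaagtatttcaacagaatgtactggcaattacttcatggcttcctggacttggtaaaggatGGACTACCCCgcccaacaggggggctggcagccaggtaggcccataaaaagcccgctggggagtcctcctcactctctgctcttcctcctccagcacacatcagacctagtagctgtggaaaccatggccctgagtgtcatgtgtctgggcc
Cxcl1 and Cxcl2 both hold the letters GGGAATTTCC, at -71 to -62 and at -97 to -88 from the gene start, and Il6 holds GGGATTTTCC at -44 to -35. Lcn2 has only a loose match, GGACTACCCC at -102 to -93, and a C/EBP-like TTGCTCAA at -216 to -209. A match is a description of the letters and not evidence of binding.

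Across the 14 groups, 6 members had their highest mean level in satellite cells on day 1, namely Cxcl1, Cxcl2, Cxcl5, Il6, Ptgs2 and Csf3. Csf2, Nfkbiz and Zc3h12a were highest in colonic Vγ6 cells, and Lcn2 was highest in whole muscle on day 1.  The groups come from sorted cells and from whole tissue, and no test was made between those kinds of library.

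**Figure D1:**
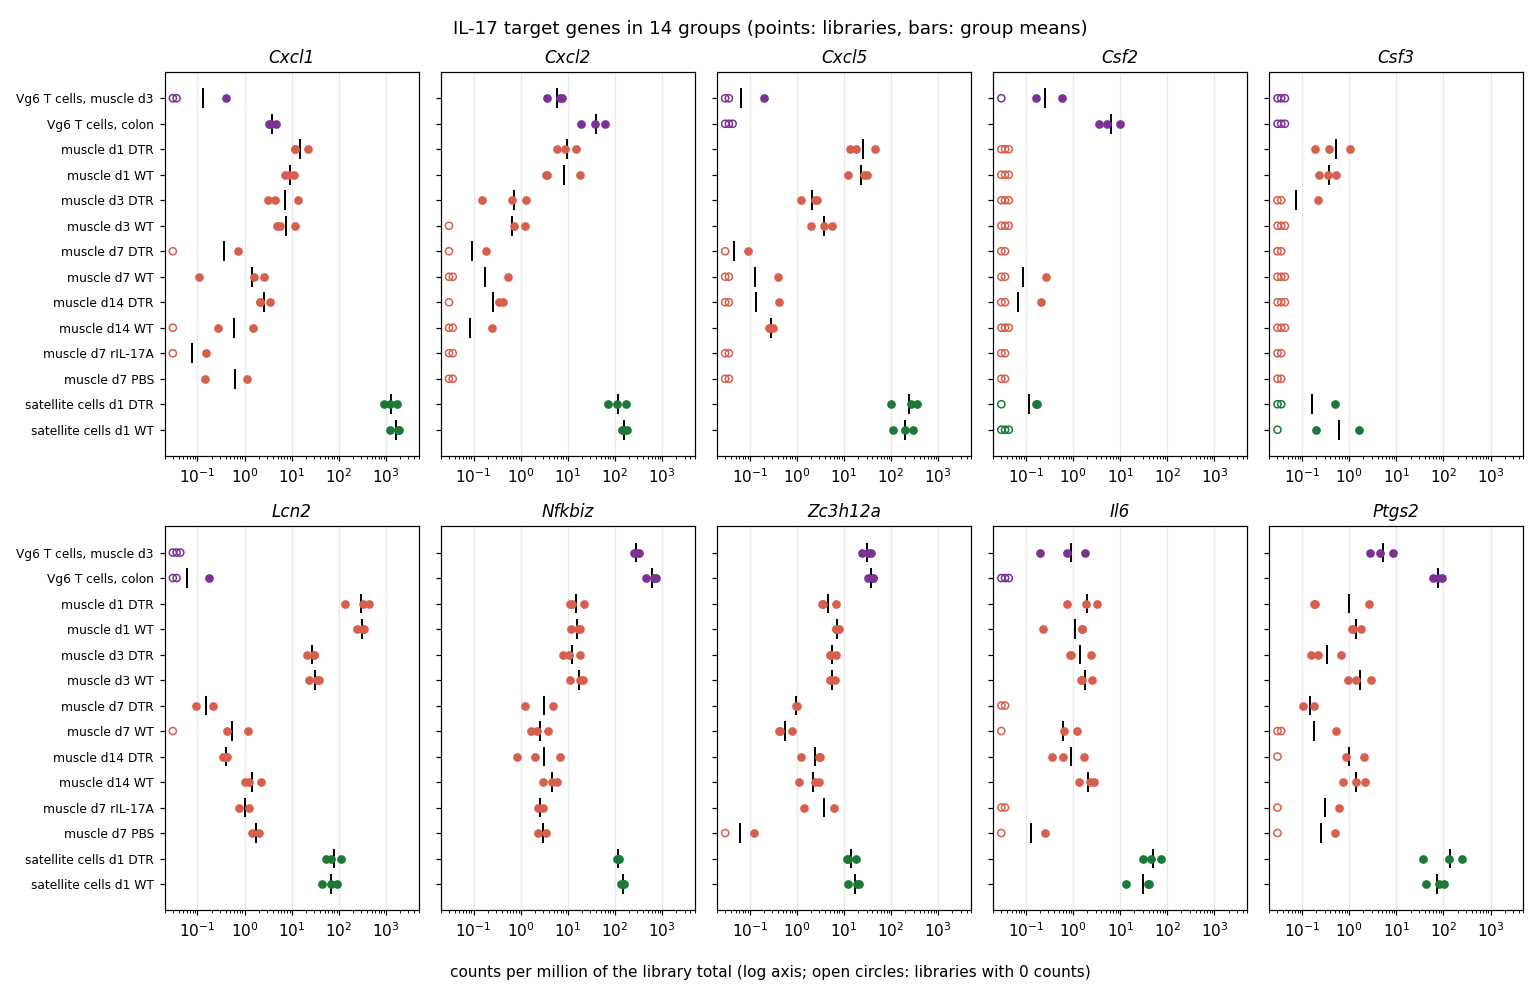
CPM of the 10 IL-17 target genes (log x axis) in each library of the 14 groups (rows), with bars at the group means and open circles for libraries with 0 counts. Green satellite cell points lie furthest right for Cxcl1, Cxcl2, Cxcl5 and Il6, purple Vγ6 points for Nfkbiz, Zc3h12a and Csf2, and day 1 muscle points for Lcn2.

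Cxcl1, a ligand of the neutrophil receptor CXCR2, stood at 922, 1232 and 1733 CPM in satellite cells of Tcrd-DTR mice, against 1873, 1772 and 1249 CPM in those of WT mice. The next groups in order were whole muscle of day 1, at 15.1 ± 5.67 CPM labelled Tcrd-DTR and 9 ± 2.11 CPM in WT (SD, n = 3 each). Satellite cell libraries were therefore set apart from all others for Cxcl1 with no overlap, while the 2 satellite cell groups overlapped each other. Cxcl2, which binds the same receptor, had 116 ± 48.8 CPM in Tcrd-DTR and 159 ± 18.8 CPM in WT satellite cells, followed without overlap by colonic Vγ6 cells at 39.4 ± 21.1 CPM (SD, n = 3 each). Cxcl5, another CXCR2 ligand, had 238 ± 129 CPM in Tcrd-DTR and 197 ± 90.8 CPM in WT satellite cells, above the day 1 muscle at 25.2 ± 16.8 CPM labelled Tcrd-DTR and 23.2 ± 9.72 CPM in WT. Unlike Cxcl2, Cxcl5 was close to absent from Vγ6 cells, with 1 count over the 3 muscle libraries and 0 over the 3 colon libraries.

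Il6, the acute-phase cytokine that myogenic cells also make, had 30.7, 45.8 and 74.7 CPM in Tcrd-DTR and 40.8, 39 and 13.3 CPM in WT satellite cells, and no whole-muscle library was above 3.17 CPM. Ptgs2, the inducible cyclooxygenase that starts prostaglandin synthesis, had 36.1, 134 and 251 CPM in Tcrd-DTR and 100.4, 79.1 and 43.2 CPM in WT satellite cells. Colonic Vγ6 cells at 77.2 ± 17.8 CPM lay within that range for Ptgs2, and whole muscle stayed at or below 2.88 CPM in every library. Csf3 (G-CSF, the growth factor of neutrophils) was near its detection limit everywhere, with 27 counts over all 39 libraries. Of these, 10 came from WT satellite cells (9 of them in replicate 1), 3 from Tcrd-DTR satellite cells, 7 from day 1 muscle labelled Tcrd-DTR and 6 from WT day 1 muscle.

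The satellite cell libraries also expressed the receptor, with Il17ra at 153 ± 20.5 CPM in Tcrd-DTR and 142 ± 10.6 CPM in WT and Il17rc at 43.2 ± 13.5 CPM in Tcrd-DTR and 42.9 ± 11.5 CPM in WT (SD, n = 3 each). Neutrophil markers (12 genes) summed to 0.996 to 3.16 CPM in Tcrd-DTR and 0.382 to 2.39 CPM in WT satellite cells, with Ly6g, Retnlg and S100a9 at 0 in both. Macrophage markers (10 genes) summed to 14.4 to 23.5 CPM in Tcrd-DTR and 16.1 to 24.3 CPM in WT, with Itgam and C1qa at 0 in both. Fibro-adipogenic progenitor markers (9 genes) summed to 8786 to 11257 CPM in Tcrd-DTR and 7177 to 9146 CPM in WT satellite cells. Their defining gene Pdgfra stood at 43.0 ± 25.9 CPM in Tcrd-DTR and 44.4 ± 9.82 CPM in WT satellite cells. That was near the whole-muscle level of day 1, 53.7 ± 22.9 CPM labelled Tcrd-DTR and 49.1 ± 9.13 CPM in WT. The part of these progenitors in the member levels was not tested.

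Satellite cells of Tcrd-DTR and WT mice were compared to ask whether the loss of γδ T cells reaches these genes in muscle stem cells on day 1. By edgeR's quasi-likelihood test 0 of 8 members tested passed, where 0% of 12081 genes tested did, although 719 genes had an unadjusted p under 0.05 and DESeq2 called 11 genes. Csf2 and Csf3 had too few counts to be tested. Nfkbiz, which encodes IκBζ, a nuclear cofactor that IL-17 induces and that its secondary targets need, had 110, 117 and 123 CPM in Tcrd-DTR and 146, 137 and 158 CPM in WT satellite cells. The Nfkbiz groups did not overlap, and the fitted change was -0.34 ± 0.13 with an adjusted p of 0.818. Cxcl1 changed by -0.32 ± 0.24 and Cxcl2 by -0.45 ± 0.27, while Il6 changed by 0.71 ± 0.46 and Ptgs2 by 0.94 ± 0.79, all with overlapping groups and adjusted p between 0.837 and 0.862. The 8 members had a median log2 change of -0.04, beside 0.02 over all genes tested. Of 9 myofibre markers, 7 were tested and 0 passed, with a median log2 change of 4.60. The fibre gene Acta1 had 557 ± 934 CPM in Tcrd-DTR (15.3 to 1636 CPM) and 15.3 ± 1.40 CPM in WT satellite cells (SD, n = 3 each). The part of fibre RNA in the member values was not tested.

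In Vγ6 T cells, 5 of the 6 members with enough counts were lower in muscle than in colon. Of these, Cxcl1 and Csf2 had enough counts only in colon, where they were high, so the low-count filter fixed their direction. Il6, with 16 counts in muscle and 0 in colon, was left out by the same filter. Ptgs2, Cxcl2 and Nfkbiz had enough counts in both groups and were lower, and Zc3h12a did not pass. The share of all 11907 genes tested that were lower in muscle was 12.2%, and 24.5% passed in either direction. The 6 members had a median log2 change of -3.36, beside -0.01 over all genes tested. That median includes Cxcl1 and Csf2 and leaves out Il6, so it depends in part on the filter. Tissue and injury differ together between these groups, so they cannot be told apart. Some genes listed as markers of other cell types also differed between these libraries, while others on the same lists did not or went the other way. The 8 epithelial markers summed to 32.5 to 41.7 CPM in muscle Vγ6 cells and 35.9 to 42.5 CPM in colonic ones, with Krt19 at 0 counts in muscle and Fabp2 at 0 in both. Of 3 epithelial markers tested, only Epcam passed, with 5.35 ± 0.388 CPM in muscle and 14.8 ± 3.79 CPM in colon, a change of -1.49 ± 0.32 (adjusted p = 0.0033). The 9 fibro-adipogenic progenitor markers summed to 72.0 to 88.3 CPM in muscle and 237 to 296 CPM in colon, where Ly6a was lower in muscle among 2 tested. Their defining gene Pdgfra was near the detection limit and did not follow the sum, with 9 counts in muscle and 3 in colon. The 8 satellite cell markers summed to 51.4 to 85.7 CPM in muscle and 359 to 499 CPM in colon, with Sdc4 lower in muscle among 2 tested and Myf5 at 0 in both. Pax7 had 3 counts in muscle and 1 in colon and Vcam1 28 and 8, which did not follow the sum, while Myod1 had 23 and 60. Macrophage markers summed to 5.91 to 21.0 CPM in muscle and 13.9 to 23.6 CPM in colon, and neutrophil markers to 0.326 to 7.02 and 1.22 to 2.85 CPM. The 6 B cell markers summed to 155 to 200.3 CPM in muscle and 98.9 to 135 CPM in colon, with 1 higher and 1 lower in muscle of 2 tested. The part of other cell types in the member values was not tested.

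Among the cytokine and enzyme genes, Ptgs2 had 4.40, 2.77 and 8.31 CPM in muscle Vγ6 cells, against 95.3, 76.4 and 59.8 CPM in colonic Vγ6 cells. It fell by 3.94 ± 0.30 on the log2 scale (edgeR adjusted p = 2.2e-07). Cxcl2 had 3.59, 6.65 and 7.52 CPM in muscle, against 19.0, 38.1 and 61.2 CPM in colon, a change of -2.78 ± 0.39 (adjusted p = 0.00016). Every muscle library was below every colon library for both genes.

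Csf2 (GM-CSF), a cytokine that IL-17-producing T cells can themselves secrete, had 1, 0 and 3 counts in muscle Vγ6 cells, against 14, 30 and 56 in colonic ones. Its change was -4.60 ± 0.80 (adjusted p = 0.00059). Colonic Vγ6 cells held 100 of the 109 Csf2 counts in the series, and no group outside Vγ6 cells had more than 2. The 5 colon-over-muscle differences held by name in each of the 11 other settings and left-out libraries tried. Csf2 shares 6.39% of its 50-base words with Gm12223, an antisense gene that overlaps it, and whether strand was used in counting is not stated in the labels.

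Cxcl1 had 0, 0 and 2 counts in muscle Vγ6 cells, against 13, 21 and 26 in colonic cells, a colon-over-muscle ratio of 32.7 (95% interval 8.65 to 276, counting error only; edgeR adjusted p = 0.0013). The colonic level of 3.88 ± 0.681 CPM was low beside that of satellite cells. Il6 went the other way, with 11, 4 and 1 counts in muscle Vγ6 cells and 0 in each of the 3 colonic libraries. That is at least 4.90-fold higher in muscle with the colon group set at 3 counts, and Il6 had too few counts for the fit (exact permutation p = 0.1, two-sided, the smallest possible).

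Both regulators were strongly expressed in Vγ6 cells. Nfkbiz had 278, 254 and 318 CPM in muscle, against 730, 678 and 447 CPM in colon, and fell by 1.16 ± 0.18 on the log2 scale (adjusted p = 0.0016). Zc3h12a, which encodes Regnase-1, an RNase that degrades inflammatory mRNAs such as Il6 and restrains IL-17 signalling, had 23.8, 33.0 and 37.4 CPM in muscle and 41.2, 41.1 and 31.8 CPM in colon. Its ranges overlapped and its change was -0.31 ± 0.21 (adjusted p = 0.31). Lcn2, Csf3 and Cxcl5 had at most 1 count in either group.

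Other IL-17-responsive genes moved the same way in these cells where they could be tested. Of 22 listed, 4 had enough counts and all 4 were lower in muscle, among them Lif (-2.36 ± 0.50), Nfkbia (-0.59 ± 0.11) and Tnfaip3 (-0.70 ± 0.15), the last 2 being NF-κB feedback inhibitors. Of 12 receptor and adaptor genes, 11 were tested, with 3 higher and 2 lower, including Il17re (0.87 ± 0.10) and Il17ra (0.70 ± 0.10), both higher, and Traf3ip2, the gene of Act1 (-0.78 ± 0.13). Il17a itself averaged 467 ± 37.8 CPM in muscle Vγ6 cells and 361 ± 189 CPM in colonic ones (SD, n = 3 each).

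In whole muscle after injury, most members were highest on day 1 or on days 1 and 3 and low by day 7, in both genotypes. Over the 4 days, 6 of 8 members changed in Tcrd-DTR muscle (Cxcl1, Cxcl2, Cxcl5, Il6, Lcn2 and Nfkbiz), where 56.2% of 18264 genes tested did. In WT muscle 6 of 8 changed (Cxcl1, Cxcl2, Cxcl5, Lcn2, Nfkbiz and Zc3h12a), where 53.7% of genes did. Most genes tested thus changed over the course. Cxcl2 met the low-count filter through day 1 alone, and Cxcl5 and Lcn2 through days 1 and 3 alone, the days when they were high. Csf2 and Csf3 were not tested, with 3 and 14 counts over all 27 whole-muscle libraries. Il6 among the Tcrd-DTR calls rested on the 2 day 7 libraries, with adjusted p of 0.120 and 0.163 when replicate 1 or 2 was left out. Leaving out either Tcrd-DTR day 7 library leaves 1 in that group, which is then assumed to vary like the other groups, for Il6 and for every other member.

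**Figure D2:**
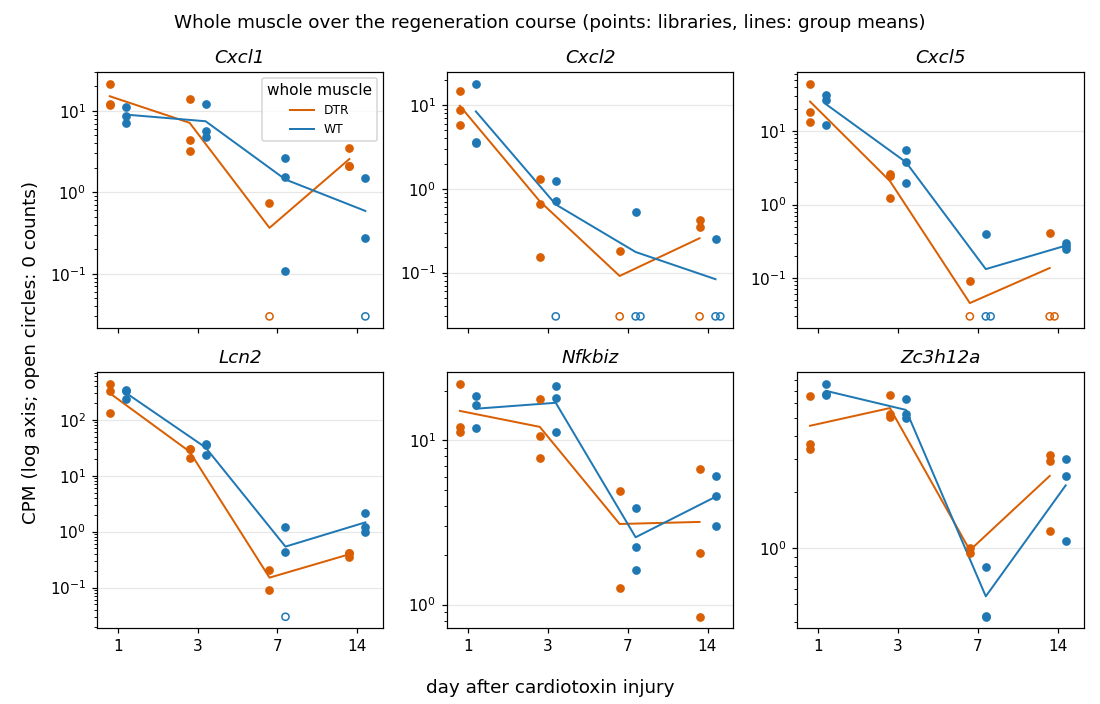
CPM (log y axis) of 6 members in whole muscle on days 1, 3, 7 and 14 after injury, Tcrd-DTR (orange) left of WT (blue), with points for libraries, lines through group means and open circles for 0 counts. Lcn2, Cxcl2 and Cxcl5 step down between days 1 and 3 and again towards day 7, while Nfkbiz and Zc3h12a have lower means on day 7 than on days 1 and 3.

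Lcn2 encodes lipocalin-2, which withholds iron from bacteria by binding their siderophores and is a standard readout of IL-17 action. On day 1 it had 327, 134 and 439 CPM in muscle labelled Tcrd-DTR and 333, 345 and 238 CPM in WT. On day 3 it had 29.6, 30.4 and 21.1 CPM in Tcrd-DTR and 23.5, 37.2 and 35.2 CPM in WT, and by days 7 and 14 no library was above 2.18 CPM. No day 3 library reached the lowest day 1 library in either genotype.

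For the first step, day 3 over day 1, 3 of 8 members fell in Tcrd-DTR muscle, where 5.86% of all genes fell, and the same 3 fell in WT muscle, where 9.36% did. Of these 3, Cxcl2 was in the fit only through its day 1 libraries, so the filter fixed its direction. Lcn2 and Cxcl5 had enough counts on both days. Lcn2 changed by -3.81 ± 0.42 in Tcrd-DTR and -3.65 ± 0.42 in WT (edgeR adjusted p = 1.9e-06 and 2.7e-06). Cxcl5 changed by -3.74 ± 0.51 in Tcrd-DTR, with 18.0, 44.4 and 13.2 CPM on day 1 and 2.63, 2.42 and 1.21 CPM on day 3. In WT muscle Cxcl5 changed by -2.96 ± 0.48, with 12.2, 30.6 and 26.8 CPM on day 1 and 5.54, 3.84 and 1.96 CPM on day 3. Both chemokine series were separated between the days without overlap.

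Cxcl2 had 5.81, 14.8 and 8.70 CPM on day 1 and 1.32, 0.660 and 0.152 CPM on day 3 in Tcrd-DTR muscle (-3.98 ± 0.87, adjusted p = 0.0012). In WT muscle it had 3.61, 18.1 and 3.48 CPM on day 1 and 1.23, 0.720 and 0 CPM on day 3 (-3.87 ± 0.86, adjusted p = 0.0011). Replicate 2 of WT day 1 carried much of the WT value, and without it the change was -2.73 with an adjusted p of 0.0504. Cxcl1 did not pass at this step, with 7.14 ± 5.83 CPM on day 3 in Tcrd-DTR and 7.46 ± 3.95 CPM in WT, and changes of -1.30 ± 0.64 in Tcrd-DTR and -0.63 ± 0.64 in WT (adjusted p = 0.189 and 0.569). Without replicate 1 of Tcrd-DTR day 3, which had 13.8 CPM beside 4.40 and 3.18 CPM, Cxcl1 changed by -2.16 (adjusted p = 0.0491).

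The 2 intracellular regulators did not pass at this step. Nfkbiz had 15 ± 6 CPM on day 1 and 12 ± 5.21 CPM on day 3 in Tcrd-DTR muscle and 15.5 ± 3.35 and 16.8 ± 5.20 CPM in WT. Zc3h12a had 4.55 ± 1.79 CPM on day 1 and 5.67 ± 0.875 CPM on day 3 in Tcrd-DTR and 7.01 ± 0.553 and 5.54 ± 0.677 CPM in WT (SD, n = 3 each). The lowest adjusted p was 0.313, for Zc3h12a in WT muscle, whose day 3 libraries all lay below those of day 1.

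Of the 12 neutrophil markers, 9 were tested, with 3 lower and 1 higher on day 3 than on day 1 in each genotype. The 12 neutrophil markers summed to 93.1 to 214 CPM in Tcrd-DTR-labelled and 60.7 to 243 CPM in WT muscle on day 1 and to 68.2 to 82.5 and 61.2 to 140 CPM on day 3, with overlap in WT muscle. Ly6g had 1 count on day 1 in Tcrd-DTR and 6 in WT muscle and 0 on day 3 in both. On days 7 and 14 no sum was above 34.9 CPM. Cxcr2, the receptor of the chemokines Cxcl1, Cxcl2 and Cxcl5, had 14.8 ± 7.08 CPM on day 1 and 1.10 ± 0.958 CPM on day 3 in Tcrd-DTR muscle and fell by 4.01 ± 0.83 on the log2 scale. In WT muscle Cxcr2 had 14 ± 11.2 CPM on day 1 and 0.714 ± 0.589 CPM on day 3 and fell by 4.47 ± 0.85. The part of infiltrating neutrophils in the levels of Lcn2 and the chemokines was not tested.

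For the second step, day 7 over day 3, 5 of 8 members fell in Tcrd-DTR muscle, where 18.4% of genes fell, and 4 of 8 in WT, where 19.0% fell. Lcn2 and Cxcl5, among the falls in both genotypes, were in the fit through days 1 and 3 alone, so these counts depend in part on the filter. Lcn2 went to 3 counts over the 2 Tcrd-DTR libraries on day 7, beside 412 on day 3, a day 3 over day 7 ratio of 179.5 (95% interval 61.0 to 874, counting error only). In WT muscle Lcn2 changed by -5.05 ± 0.59, with 0, 4 and 9 counts on day 7 (adjusted p = 9.0e-07). Cxcl5 had 1 count on day 7 in Tcrd-DTR and 3 in WT, and it fell in both genotypes (adjusted p = 0.0023 and 5.1e-05). In a fit with replicate number as a block, Cxcl5 kept its direction in Tcrd-DTR muscle (-2.82) and did not pass (adjusted p = 1).

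Zc3h12a had 0.943 and 1.00 CPM on day 7 in Tcrd-DTR (-1.55 ± 0.57, adjusted p = 0.032) and 0.427, 0.430 and 0.792 CPM in WT (-2.53 ± 0.55, adjusted p = 0.00028). The Tcrd-DTR call for Zc3h12a was lost without replicate 3 of day 3 (adjusted p = 0.0765) and without replicate 1 or 2 of day 7 (0.128 and 0.157). Nfkbiz had 1.26 and 4.92 CPM on day 7 in Tcrd-DTR (-0.98 ± 0.50, adjusted p = 0.125) and 3.84, 1.61 and 2.24 CPM in WT (-1.92 ± 0.46, adjusted p = 0.00094).

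Cxcl1 had 7 and 0 counts on day 7 in Tcrd-DTR (-3.24 ± 0.95, adjusted p = 0.0090) and 11, 1 and 20 counts in WT (-1.67 ± 0.71, adjusted p = 0.065). Its Tcrd-DTR call was lost without day 3 replicate 1 (adjusted p = 0.0559) and without day 7 replicate 2 (0.112). WT day 7 replicate 3 held 20 of the 32 Cxcl1 counts, all 4 Cxcl2 counts and all 4 Ptgs2 counts of its group, and without it Cxcl1, Cxcl2 and Ptgs2 also fell (adjusted p = 0.0285, 0.0494 and 0.0159). In that library olfactory and vomeronasal receptor genes summed to 1383 CPM, beside 267 and 543 CPM in replicates 1 and 2. It had 34392 genes detected, beside 22417 and 27437. The part of this difference in the member counts was not tested. Il6 had 0 counts on day 7 in Tcrd-DTR, beside 21 on day 3, at least 9.15-fold lower with the group of day 7 set at 3 counts (adjusted p = 0.011). That call was lost when either day 7 library was left out (adjusted p = 0.0706 and 0.0872).

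Fibre genes took a larger share of the libraries at this time, which lowers the CPM of everything else. The 9 myofibre markers summed to 57827 to 75897 CPM in Tcrd-DTR and 24967 to 78359 CPM in WT muscle on day 3, and to 188336 to 198069.7 and 151573 to 178113 CPM on day 7. Scaling by library total in place of TMM moved the median log2 change of all genes by -0.97 in Tcrd-DTR and -0.77 in WT at this step. The fitted falls above are on the TMM scale and are smaller than those in CPM. The ratio given for Lcn2 and the bound given for Il6 in Tcrd-DTR muscle are on library totals and include this shift.

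For the last step, day 14 over day 7, 1 of 8 members rose in each genotype. In Tcrd-DTR muscle, where 14.6% of genes rose, it was Il6, with 1, 4 and 3 counts on day 14 and 0 on day 7, at least 5.41-fold higher (adjusted p = 0.018). It was lost without either day 7 library (adjusted p = 0.0818 and 0.125) and without day 14 replicate 2 (0.0564). In WT muscle, where 4.14% of genes rose, it was Zc3h12a, with 2.17 ± 0.981 CPM on day 14 (1.84 ± 0.59, adjusted p = 0.025). That call was lost without day 7 replicate 1 or 2 (adjusted p = 0.0620 and 0.0781) and without day 14 replicate 1 or 3 (0.124 and 0.0675). Without WT day 7 replicate 3, Ptgs2 also rose in WT muscle (adjusted p = 0.0191). Olfactory and vomeronasal receptor genes summed to 146 and 92.1 CPM on day 7 and 1997, 1709 and 1439 CPM on day 14 in Tcrd-DTR muscle. In WT muscle they summed to 267, 543 and 1383 CPM on day 7 and 1578, 1626 and 1844 CPM on day 14. Their part in the rises of Il6, Zc3h12a and Ptgs2 was not tested.

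Of the 22 other IL-17-responsive genes listed, 18 were tested. At the first step 9 fell and 0 rose in each genotype, among them Cebpd, a C/EBP factor of the IL-17 response, at -2.20 ± 0.43 in Tcrd-DTR and -3.00 ± 0.45 in WT. At the second step 7 fell in each genotype, with 1 rising in Tcrd-DTR and 2 in WT, and the monocyte chemokine Ccl2 changed by -3.60 ± 0.60 in Tcrd-DTR and -5.03 ± 0.57 in WT. At the last step 1 rose and 4 fell in Tcrd-DTR, and 1 rose and 3 fell in WT, with median changes of -0.75 and -0.38. The 8 members tested had medians of 1.19 and 1.11, and 1 of them passed in each genotype. Their medians rest mostly on genes with few counts, such as Cxcl5 with 3 counts on each day in WT muscle. No difference between the lists is read from these medians. Il17ra came down at the second step too, by 2.56 ± 0.50 on the log2 scale in Tcrd-DTR and 3.08 ± 0.44 in WT, as macrophage markers did in 10 of 10 genes in each genotype. Macrophage markers summed to 7888 to 9555 CPM in Tcrd-DTR and 8524 to 14134 CPM in WT muscle on day 3 and to 419 to 1615 and 446 to 714 CPM on day 7. The part of macrophages in the day 7 levels was not tested.

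Likeness over the course was described by Pearson's r of mean log2 CPM over the 10 whole-muscle groups. These groups differ in depth and fibre content, whose part in the r values was not tested, and the r values carry no p. Cxcl2 was most like S100a9 (r = 0.990), a neutrophil calcium-binding protein, then Sqstm1 and Rrad. Cxcl5 was most like Nppb (0.994), Nags and Rrad, and genes like Lcn2 included Csrnp1 (0.979) and Il1rl1. Cxcl1 was most like Asb6 (0.965), Clec4e and Wdr43, Nfkbiz like Acvrl1 (0.981), Zfp36 and Atoh8, Zc3h12a like Car8 (0.983), Crkl and Phc3, and Il6 like Rgsl1 (0.971), Fam155a and Nipal2. Among members, Lcn2 and Cxcl5 had r = 0.969 and Cxcl2 and Cxcl5 had r = 0.959, while Zc3h12a and Il6 were least alike (0.440).

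Tcrd-DTR muscle was set against WT muscle on each day to ask whether γδ T cells alter the response. No member passed on any day, 0 of 8 tested by edgeR each time. Of all 18264 genes tested, 0% passed on day 1, 0% on day 3, 2.01% on day 7 and 0.0767% on day 14. At an unadjusted p under 0.05 there were 778, 873, 3781 and 1046 genes on days 1, 3, 7 and 14, and DESeq2 called 0, 2, 994 and 67. The change over time also did not pass for a difference between genotypes in any of 8 members, where 0.613% of genes did, with 2471 genes at an unadjusted p under 0.05 and 582 called by DESeq2. The lowest adjusted p of a member in that test was 0.366, for Il6.

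**Figure D3:**
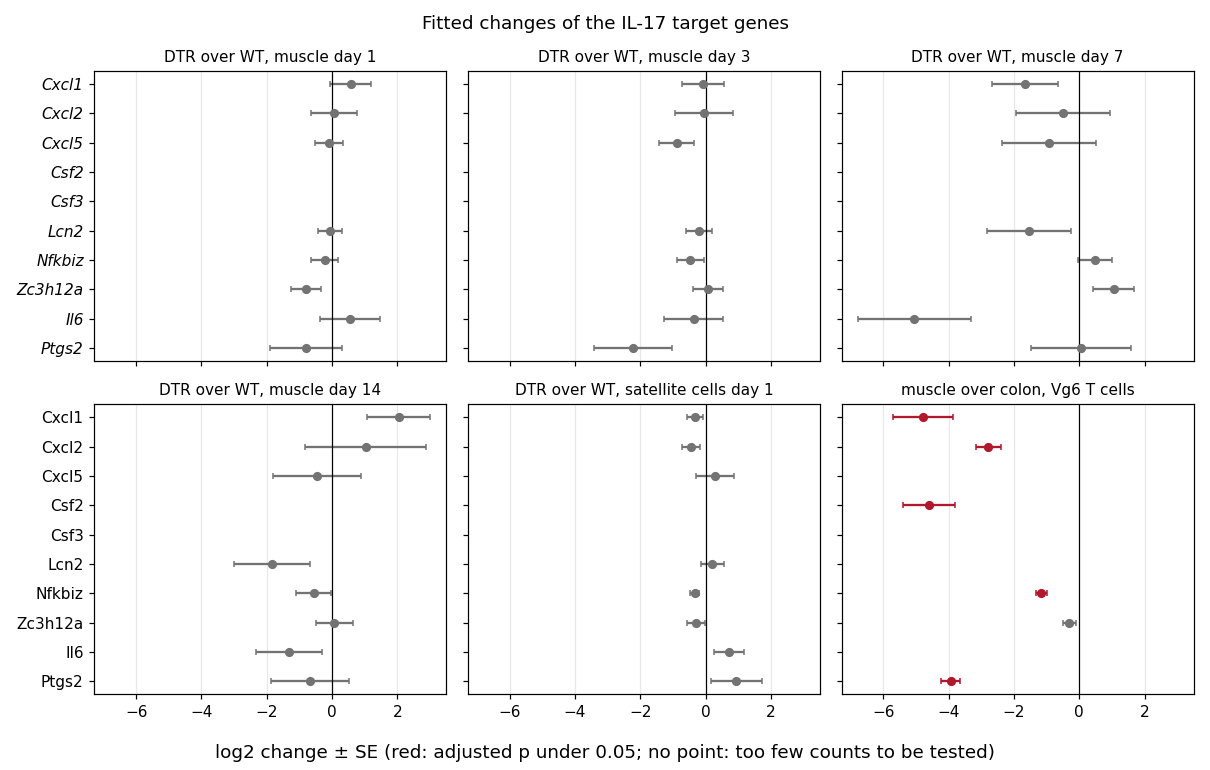
Fitted log2 change ± SE of each member (rows) for Tcrd-DTR over WT in whole muscle on days 1, 3, 7 and 14 and in satellite cells on day 1, and for muscle over colon in Vγ6 T cells. Red points, adjusted p under 0.05, appear only in the Vγ6 panel, where Cxcl1, Cxcl2, Csf2, Nfkbiz and Ptgs2 lie left of 0, and the depletion panels hold grey points with wide bars on days 7 and 14.

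On day 1 Lcn2 changed by -0.06 ± 0.37, Cxcl5 by -0.10 ± 0.43, Cxcl2 by 0.06 ± 0.71 and Nfkbiz by -0.22 ± 0.42 in muscle labelled Tcrd-DTR over WT. Cxcl1 had 12, 21.7 and 11.7 CPM in muscle labelled Tcrd-DTR, just above the 8.57, 11.3 and 7.14 CPM of WT, with a change of 0.57 ± 0.63 (adjusted p = 0.998). On TMM-scaled totals the Cxcl1 values were 11.9, 15.2 and 11.4 against 9.23, 11.6 and 7.48 CPM, with overlap. Zc3h12a went the other way, with 3.63, 6.61 and 3.4 CPM in muscle labelled Tcrd-DTR and 6.77, 7.64 and 6.62 CPM in WT, so that its groups barely missed overlapping. Its change was -0.80 ± 0.47 (adjusted p = 0.998).

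On day 3, Cxcl1 changed by -0.09 ± 0.64, Lcn2 by -0.21 ± 0.40, Nfkbiz by -0.47 ± 0.42 and Cxcl5 by -0.88 ± 0.53. Cxcl5 had 2.63, 2.42 and 1.21 CPM in Tcrd-DTR and 5.54, 3.84 and 1.96 CPM in WT, with overlap. Ptgs2 had 1, 3 and 1 counts in Tcrd-DTR and 6, 12 and 5 in WT, which did not overlap, and changed by -2.22 ± 1.2 (unadjusted p = 0.0717, edgeR adjusted p = 1).

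On day 7 Il6 had 0 and 0 counts in Tcrd-DTR muscle, against 0, 6 and 9 counts in WT, at least 4.29-fold lower with the Tcrd-DTR group set at 3 counts. The adjusted p was 0.10, and it was 0.0458 when WT replicate 1, the WT library at 0, was left out. Olfactory and vomeronasal receptor genes summed to 146 and 92.1 CPM in these Tcrd-DTR libraries. In WT replicates 1, 2 and 3 they summed to 267, 543 and 1383 CPM, and their part in the Il6 counts was not tested. Over the other settings and left-out libraries the adjusted p of Il6 ran up to 0.387. Zc3h12a had 0.943 and 1.00 CPM in Tcrd-DTR and 0.427, 0.430 and 0.792 CPM in WT, with no overlap and a change of 1.05 ± 0.63 (adjusted p = 0.34). Lcn2 had 2 and 1 counts in Tcrd-DTR and 0, 4 and 9 in WT, and Cxcl1 7 and 0 counts against 11, 1 and 20. The median change of the 8 members was -0.72, beside -0.02 over all genes, and it rests on genes with few counts.

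On day 14 Cxcl1 had 6, 5 and 17 counts in Tcrd-DTR muscle, against 6, 1 and 0 in WT, or 2.10, 2.11 and 3.49 CPM against 1.5, 0.273 and 0 CPM. The groups did not overlap, and the change was 2.04 ± 0.96 (unadjusted p = 0.043, edgeR adjusted p = 0.86). Lcn2 lay the other way, with 1, 1 and 2 counts in Tcrd-DTR and 4, 8 and 4 in WT, and a change of -1.85 ± 1.16 (adjusted p = 0.996).

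Of the other IL-17-responsive genes, 1 of 18 tested passed in any depletion comparison of whole muscle, on day 7, where 2.01% of all genes passed. Nos2, the inducible nitric oxide synthase, had 0.143 ± 0.055 CPM in Tcrd-DTR and 1.89 ± 0.719 CPM in WT muscle on day 7 (SD, n = 2 and 3) and changed by -3.36 ± 0.78 (adjusted p = 0.017). The Tcrd-DTR level lies under the 0.314 and 0.273 CPM that 3 counts make in its 2 libraries. The part of the day 7 difference in olfactory and vomeronasal receptor counts between the genotypes was not tested for Nos2 either. Of the receptor and adaptor genes 0 of 9 passed on any day, and 0 of 10 receptors of the member cytokines did. Il17a was at 0 to 3 counts in every whole-muscle group.

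Muscle given rIL-17A was compared with muscle given PBS on day 7 to ask what added cytokine does. Only Nfkbiz had enough counts to be tested, and it did not pass, so 0 of 1 member tested changed where 34.1% of 12896 genes did (edgeR, with 5776 genes at an unadjusted p under 0.05 and 3940 called by DESeq2). Nfkbiz had 2.95 and 2.29 CPM with rIL-17A and 3.51 and 2.29 CPM with PBS, a change of -0.27 ± 0.71 (adjusted p = 0.80).

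**Figure D4:**
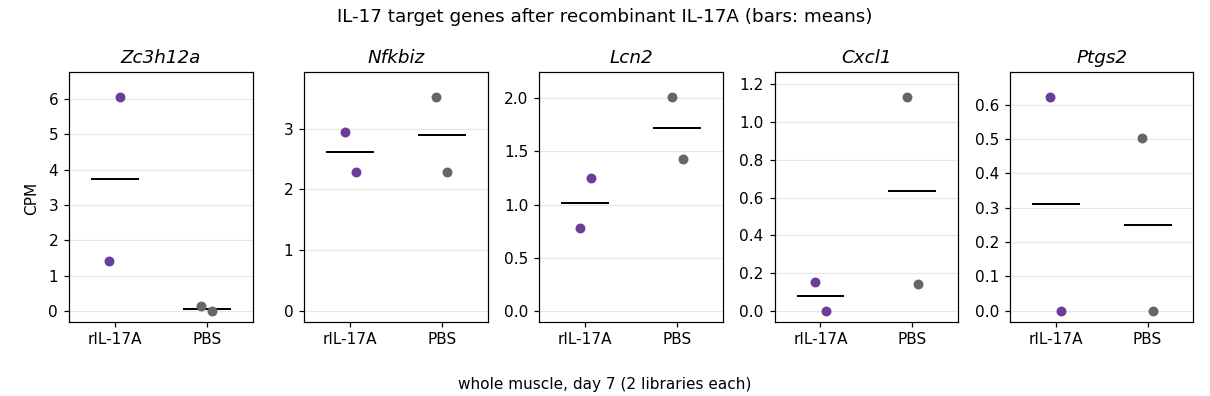
CPM of the 5 members with the most counts in whole muscle on day 7 after rIL-17A (left in each panel) or PBS (right), 2 libraries each, with bars at the means. Zc3h12a lies at 1.40 and 6.04 CPM with rIL-17A and at 0.126 and 0 CPM with PBS, and the other 4 genes overlap between the groups or lie lower with rIL-17A.

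Zc3h12a was the one member with clearly more counts after rIL-17A, 9 and 29 counts against 1 and 0 with PBS. The ratio of the sums, rIL-17A over PBS, was 50.6 (95% interval 8.55 to 2050.0, counting error only), and the exact permutation p of 0.333 is the smallest that 2 against 2 libraries allow. The filter on low counts left Zc3h12a out of the fit. Without that filter its log2 change was 5.29 ± 1.41 (edgeR adjusted p = 0.0018). In the time course on day 7 it had 0.943 and 1.00 CPM in Tcrd-DTR and 0.427, 0.430 and 0.792 CPM in WT muscle, so the rIL-17A libraries lay above these and the PBS libraries below. The time-course mice had received diphtheria toxin, and no test was made between these sets of libraries. Olfactory and vomeronasal receptor genes summed to 12.1 to 25.8 CPM in the PBS and rIL-17A libraries. They summed to 92.1 to 1383 CPM in the time-course libraries of day 7.

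The other members had few counts in these libraries. Lcn2 had 5 and 6 counts with rIL-17A and 16 and 10 with PBS (0.777 and 1.25 CPM against 2.01 and 1.43 CPM), lower without overlap (exact permutation p = 0.333, the smallest possible). Cxcl1 had 1 and 0 counts with rIL-17A and 9 and 1 with PBS. Il6 had 0 counts with rIL-17A and 2 with PBS, Ptgs2 had 4 and 0 counts in each group, and Cxcl2, Cxcl5, Csf2 and Csf3 had 0 in both, which allows up to 0.377 to 0.625 CPM in a library (3 counts).

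Cell-type markers differed between the same libraries. Macrophage markers summed to 579 and 719 CPM with rIL-17A and 1470 and 2002 CPM with PBS, with 7 of 10 genes lower. Endothelial markers summed to 408 and 431 CPM with rIL-17A and 211 and 224 CPM with PBS, with 4 of 7 tested higher. Neutrophil markers summed to 6.21 and 7.50 CPM with rIL-17A and 6.90 and 11 CPM with PBS, with Ly6g at 0 in both. Mitochondrial genes took 4.71% and 3.43% of counts with rIL-17A and 9.24% and 8.50% with PBS, and the part of any of these in the member values was not tested.

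Of 22 other IL-17-responsive genes, 14 were tested and 6 passed, with 2 higher and 4 lower after rIL-17A. Of all 12896 genes tested, 34.1% passed. Nos2 had 14.7 ± 0.483 CPM with rIL-17A and 0.0715 ± 0.101 CPM with PBS (SD, n = 2 each), a change of 7.29 ± 0.83 (adjusted p = 9.6e-05). The matrix metalloproteinase gene Mmp3 changed by -1.99 ± 0.27 and the monocyte chemokine gene Ccl7 by -2.62 ± 0.52. The genes that passed went in both directions. With so many genes passing and few on the list, this is not read as a trait of the list.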

How the data were processed

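The authors deposited 1 table of raw read counts per gene for the whole series, with 55011 gene symbols and 39 libraries. Per the submitters' processing notes, STAR 2.7.3a, featureCounts, Subread 2.0.0 and the mouse build mm10 were named, while the gene annotation, use of strand, duplicates and multiply mapped reads were not described. Every column was assigned to its sample by its label, and 0 per-sample columns were left unused.

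Library totals ran between 2372139 and 10974862 counts. CPM was computed from the column total. Replicates of every group differed by more than sampling noise (lowest chi-square per degree of freedom 3.43). The design text calls replicates independent biological ones, and p-values measure the spread between them. Intervals (95%, exact) and floors (3 counts) cover counting error only. Ratios and bounds of count sums are on library totals without TMM scaling, also where a p from the fit stands beside them.

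Counts were fitted in R 4.3.3 with edgeR 4.0.16 (quasi-likelihood, TMM, genes kept by filterByExpr with a minimum count of 10 and minimum total of 15) in 4 separate fits: Vγ6 T cells, the 23 time-course libraries as 8 groups, rIL-17A against PBS, and satellite cells. Tests were two-sided and p-values were adjusted over all genes tested, with a threshold of 0.05. Members too low for a fit were compared by count sums and exact permutation tests (Python 3.11.15, SciPy 1.17.1). The alternatives were DESeq2 1.42.0, scaling by its size factors or by the library total, no filter on low counts, a replicate block, the compared days alone, all 27 whole-muscle libraries, leaving out each library, and leaving out the 2 libraries highest in olfactory receptor counts. The fits were checked on simulated data.

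All 10 members were described in every comparison, lists were counted in each direction with up to 3 genes of smallest p eligible to be named, and the 3 genes most like each member averaging at least 1 CPM in whole muscle were named (predicted and accession-named genes left out) by Pearson's r of mean log2 CPM (prior count 2). A gene named by this last rule is not reported here. The members and lists were chosen with earlier results of these data known. Gene and promoter sequence came from RefSeq and GENCODE tables of GRCm38.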

Additional observations from a re-analysis of the deposited data

How the results depend on the processing

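Where a member passed in a comparison in at least 1 setting, its sign in that comparison did not change under the alternatives run. Where it never passed, signs did change, as for Cxcl2 in depletion on day 1 (5 of 14 settings), Cxcl1 in depletion on day 3 (3 of 14), Ptgs2 in depletion on day 7 (6 of 12) and Nfkbiz for day 14 over day 7 in Tcrd-DTR muscle (3 of 13). Of the 652 results of the first kind under other settings, 602 kept their side of the threshold, 25 passed newly and 25 no longer passed. The number of members passing in Vγ6 cells was 5 in every setting, and it was 0 in satellite cells and in the depletion comparisons of days 1, 3 and 14. For depletion on day 7 it ran from 0 to 1 when 1 library was left out. For day 7 over day 3 it ran from 3 to 5 in Tcrd-DTR and from 4 to 7 in WT muscle when 1 library was left out. For day 14 over day 7 in Tcrd-DTR muscle it was 2 with DESeq2, with its size factors, with library size alone and without the filter, and ran from 0 to 1 with 1 library left out. For day 14 over day 7 in WT muscle it was 0 without the filter and with the compared days alone, and ran from 0 to 2 with 1 library left out. With rIL-17A it was 1 without the filter, and ran from 0 to 1 with 1 library left out, where a group keeps 1 library that is assumed to vary like the other groups. The cause was not tested.

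Same-numbered libraries had correlations of their deviations between -0.07 and 0.19, so the replicate numbers were not taken as pairs. With replicate number as a block, 3 members passed for day 7 over day 3 in Tcrd-DTR, 2 for day 14 over day 7 in Tcrd-DTR and 2 in WT muscle.

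Counts over all genes moved more. Depletion called 367 genes on day 7 and 994 with DESeq2, 14 on day 14, 67 with DESeq2 and 55 without the filter, and without the filter 17 on day 1 and 34 on day 3. Genotype by time called 112 genes, 582 with DESeq2 and 519 without the filter, and satellite cells 0, 11 and 101. A library with 0 counts of a member allows up to 0.273 to 1.26 CPM (3 counts).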
